A study of Mus musculus with 20 samples.

Results

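Meningeal fibroblast genes are described here in the adult mouse hippocampus after gestational exposure to nano-sized urban particulate matter (nPM). The group holds 8 genes, taken by their symbols in the deposited gene map, out of 48709 genes counted. They are Dcn, Lum, Ogn, Fmod, Slc6a13, Slc13a4, Slc22a6 and Aldh1a2. All 8 were found, and all 8 were among the 19797 genes that passed the filter on low counts. The study asked how exposure of the pregnant dam alters the hippocampal transcriptome of grown male and female offspring. RNA-seq was done on 20 samples of C57BL/6 mice (C57BL/6J in the methods), 5 in each of 4 groups: control females (Ct_F), nPM females (nPM_F), control males (Ct_M) and nPM males (nPM_M). In the nPM groups the dams breathed re-aerosolized nPM with the whole body, from gestational day 2 to birth, for 5 h a day on 3 days a week. The methods give 300 μg/m3, whereas the labels write mg for the same figure. In the control groups the dams breathed filtered air in parallel. The offspring themselves were not exposed after birth. Females were 17.71 to 18.29 weeks old and males 18.57 to 19.14 weeks old at collection, so sex and age cannot be told apart. Males of both exposure groups had also received EdU, a label of dividing cells, to follow neurogenesis. The brains were perfused with saline, and the right hippocampus was used. The offspring came from 5 litters per exposure group, but the labels do not tie a sample to a litter. The p-values therefore measure the spread between these samples, some of which may be siblings.

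Fibroblasts of the meninges are not neural cells. They line the surface of the brain, enter it along large vessels, and form the stroma of the choroid plexus, the tissue that secretes cerebrospinal fluid in the ventricles. A dissected hippocampus carries them only where pia, vessels or adjoining choroid plexus stay attached. The 8 genes cover several of their functions. Dcn (decorin), Lum (lumican), Ogn (osteoglycin) and Fmod (fibromodulin) are small leucine-rich proteoglycans, which bind collagen and shape its fibrils. Slc6a13 takes up GABA and taurine, Slc22a6 (OAT1) carries organic anions, and Slc13a4 carries sulfate into cells. Aldh1a2 makes retinoic acid from retinaldehyde and serves as a classical marker of the meninges. In RNA from whole tissue, fewer cells of a type and less RNA per cell cannot be told apart.

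The windows upstream of the transcription start are printed for 4 genes. Slc6a13 and Slc22a6 are the members whose levels followed each other most closely over the 20 samples. Slc13a4 and Ogn are those with the highest Pearson r with choroid plexus markers (0.88 and 0.63, with Lum close to Ogn at 0.61). Each window holds the 150 bases before the start, from RefSeq on GRCm38.p6, read 5′ to 3′ on the strand of the gene. The positions are chr6:121300138-121300287 (plus strand, the first of 3 starts listed), chr19:8617846-8617995 (plus strand), chr6:35308127-35308276 (minus strand) and chr13:49607865-49608014 (plus strand). In the deposited gene map Slc6a13 starts at chr6:121300227 and Slc13a4 at chr6:35308131, both inside these windows, so part of each lies within the gene as counted. Capitals mark GGAATG, the core bound by TEAD factors, and CCAAT, the box bound by NF-Y, on either strand.
Slc6a13: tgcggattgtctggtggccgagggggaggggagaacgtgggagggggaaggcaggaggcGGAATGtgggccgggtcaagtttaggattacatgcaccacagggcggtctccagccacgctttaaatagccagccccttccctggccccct
Slc22a6: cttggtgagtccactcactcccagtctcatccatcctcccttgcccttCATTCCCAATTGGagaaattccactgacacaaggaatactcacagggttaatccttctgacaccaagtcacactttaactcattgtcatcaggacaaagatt
Slc13a4: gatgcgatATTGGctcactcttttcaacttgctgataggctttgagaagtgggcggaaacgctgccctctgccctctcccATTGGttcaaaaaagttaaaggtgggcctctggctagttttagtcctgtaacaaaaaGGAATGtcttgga
Ogn: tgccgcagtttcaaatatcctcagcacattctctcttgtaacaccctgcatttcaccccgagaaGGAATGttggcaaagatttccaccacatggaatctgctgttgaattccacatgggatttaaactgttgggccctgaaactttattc

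Windows were found for 6 of the 8 genes. Dcn and Lum had no entry. GGAATG was present in all 4 windows printed above and absent from those of Fmod and Aldh1a2, which makes 4 of 6, while 7.59% of 32851 promoter windows of the same length held it. It lay 91 bases before the start in Slc6a13, 102 in Slc22a6, 13 in Slc13a4 and 86 in Ogn. CCAAT was present in Slc13a4, Slc22a6 and Aldh1a2, 3 of 6, beside 24.5% of all windows. In Slc22a6 the matches to both motifs overlap. GGGCGG, the GC box, was found in Slc6a13 and Slc13a4 (28.6% of all windows), CTTTGT in Slc22a6 (9.88%) and the octamer part TTTGCAT in Aldh1a2 (2.36%). No member window held TATAAA (7.57% of all windows), TGANTCA (4.24%), CACGTG (4.30%) or TAAACA (6.93%). The 6 windows differed in base composition, from 44.0% GC in Ogn to 76.0% in Aldh1a2. These matches describe letters in 150 bases of reference sequence and no binding was measured.

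All 8 genes were expressed at a low to moderate level, and Dcn stood well above the rest. Levels between genes are compared as RPKM, read counts scaled to gene length and library size. The median over the 20 samples was 9.31 RPKM for Dcn, 4.35 for Ogn, 2.20 for Slc6a13, 2.19 for Slc13a4, 1.75 for Aldh1a2, 1.59 for Lum, 0.98 for Fmod and 0.63 for Slc22a6. Dcn exceeded Ogn in 20 of 20 samples, with a mean log2 ratio of 1.22 ± 0.80 (SD, n = 20). Fmod exceeded Slc22a6 in 19 of 20 samples, with a mean log2 ratio of 0.88 ± 0.62 (SD, n = 20). For the neighbours in between, the mean log2 ratio was smaller than its SD. Ogn exceeded Slc6a13 in 15 of 20 samples, with a mean log2 ratio of 0.63 ± 0.89, and Lum exceeded Fmod in 16 of 20, with 0.66 ± 0.96 (SD, n = 20 each). Slc6a13 and Slc13a4, for example, had a mean log2 ratio of −0.02 ± 1.39 (SD, n = 20), and Aldh1a2 was above Lum in 10 of 20 samples. By median, the proteoglycans Dcn and Ogn stood at the top of this order, and Lum and Fmod below the transporters Slc6a13 and Slc13a4.

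**Figure D1:**
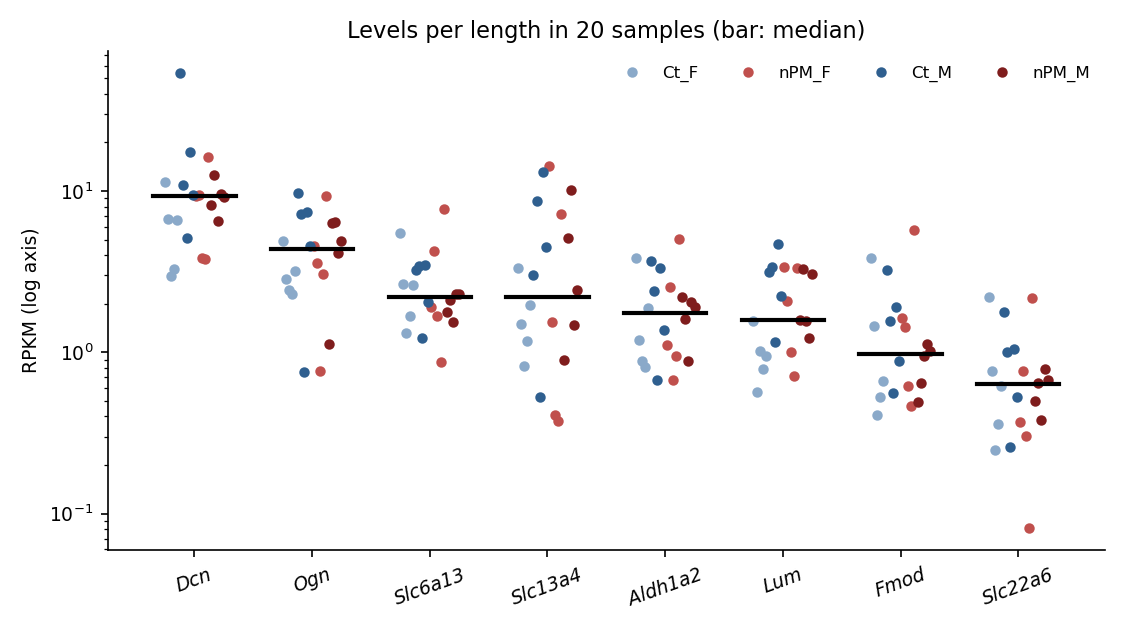
RPKM (vertical log axis) of the 8 genes (horizontal axis, ordered by median), with 1 point per sample colored by group and a bar at the median of the 20 samples. The medians run from 9.31 in Dcn to 0.63 in Slc22a6, and the points of Slc13a4 spread furthest, from 0.37 to 14.2 RPKM.

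The spread between animals was the main feature of these genes. The highest sample exceeded the lowest by 37.9-fold for Slc13a4, 26.8-fold for Slc22a6, 18.0-fold for Dcn, 14.1-fold for Fmod, 12.8-fold for Ogn, 8.96-fold for Slc6a13, 8.27-fold for Lum and 7.59-fold for Aldh1a2. The SD of log2 CPM (the log2 of counts scaled to the library total) over the 20 samples had a median of 1.01 among the members and of 0.29 among all genes that passed the filter. Of the 8 SDs, 7 lay above the 90th percentile of all genes. Slc13a4 stood at percentile 99.0, and Slc6a13, the lowest of the 8, at percentile 87.3. Dcn had 145 to 2995 reads per sample, Slc13a4 31 to 2275 and Slc6a13 46 to 687. Slc22a6 had the fewest reads, 6 to 275. The total counts per sample were 19092067 to 38663408.

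Samples high in 1 of the genes tended to be high in the others. nPM_F5 and Ct_M4 were each among the 5 highest samples for all 8 genes. At the other end, Ct_F3, Ct_F4 and Ct_M3 were each among the 5 lowest samples for 7 of the 8 genes, and nPM_F3 and nPM_F4 for 6. The summed CPM of the 8 genes was lowest in nPM_F3, at 23.6, and highest in Ct_M1, at 192. The mean of the standardized log2 CPM of the 8 genes (in SD units around the mean of the 20 samples) ran from −1.04 to 0.93 in control females, from −1.35 to 1.55 in exposed females, from −1.18 to 1.27 in control males and from −0.49 to 0.29 in exposed males. The latter lay inside the range of each other group and held none of the 5 highest or 5 lowest samples by this mean.

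The small leucine-rich proteoglycans are given first, in log2 CPM. Dcn encodes decorin, which decorates collagen fibrils and binds TGF-beta (ENSMUSG00000019929.15, chr10:97479500-97518162, plus strand, mm10). Its log2 CPM was 4.57, 3.81, 2.64, 2.78 and 3.78 in control females and 4.29, 4.29, 3.01, 2.99 and 5.08 in nPM females. In males it was 6.80, 4.51, 3.41, 5.18 and 4.30 in controls and 4.09, 4.71, 3.76, 4.33 and 4.27 after nPM. Ct_M1 was the highest of all 20 samples and alone reached 53.6 RPKM. The nPM males lay within the range of the control males, and the females of both groups overlapped.

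Lum encodes lumican, a keratan sulfate proteoglycan of cornea and connective tissue (ENSMUSG00000036446.4, chr10:97565501-97572703, plus strand, mm10). Its log2 CPM was 1.71, 0.27, 1.10, 0.73 and 0.99 in control females and 2.81, 2.13, 1.07, 0.59 and 2.79 in nPM females. In males it was 2.71, 2.81, 1.27, 3.29 and 2.21 in controls and 1.73, 2.78, 1.71, 1.35 and 2.68 after nPM. Of the nPM females, 3 of 5 exceeded every control female, and nPM_F3 and nPM_F4 lay among the controls. Lum had the lowest values in control females, with a mean of 0.96 ± 0.53, against 1.88 ± 1.01 in exposed females, 2.46 ± 0.77 in control males and 2.05 ± 0.64 in exposed males (SD, n = 5 each).

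Fmod encodes fibromodulin, which regulates collagen fibril assembly (ENSMUSG00000041559.7, chr1:134037254-134048277, plus strand, mm10). Its log2 CPM was 3.66, 2.27, 0.44, 0.82 and 1.14 in control females and 2.43, 2.26, 1.05, 0.64 and 4.24 in nPM females. In males it was 3.42, 2.37, 0.90, 2.65 and 1.55 in controls and 0.71, 1.11, 1.66, 1.90 and 1.75 after nPM. None of the 5 nPM males exceeded the median of the control males, yet the groups overlapped, with Ct_M3 and Ct_M5 among the nPM males. Ogn encodes osteoglycin, also called mimecan (ENSMUSG00000021390.5, chr13:49608071-49624500, plus strand, mm10). It ranged from 2.54 to 3.64 in control females, from 0.97 to 4.56 in exposed females, from 0.95 to 4.62 in control males and from 1.52 to 4.03 in exposed males. In each of the last 3 groups 1 sample lay far below the others: nPM_F3, Ct_M3 and nPM_M1. Ogn overlaps Cenpp on the opposite strand, which had a mean of 50.9 counts against 347.3 for Ogn. No strand setting is stated for the counting, so reads in the shared part cannot be told apart.

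Among the transporters, Slc13a4 varied most (ENSMUSG00000029843.4, chr6:35267957-35308131, minus strand, mm10). Its log2 CPM was 3.92, 2.76, 1.91, 2.42 and 3.15 in control females and 6.01, 2.80, 0.89, 0.79 and 5.02 in nPM females. In males it was 3.77, 5.30, 1.27, 5.89 and 4.35 in controls and 2.02, 4.53, 5.52, 2.74 and 3.45 after nPM. The nPM females fell apart, with nPM_F1 and nPM_F5 above every control female, nPM_F3 and nPM_F4 below every one, and nPM_F2 among them.

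Slc22a6, the organic anion transporter, lay lowest in level (ENSMUSG00000024650.4, chr19:8617996-8628299, plus strand, mm10). Its log2 CPM was 3.14, 1.64, 0.02, 0.55 and 1.33 in control females and 0.59, 1.64, 0.30, −1.49 and 3.14 in nPM females. In males it was 2.85, 2.02, 0.07, 2.08 and 1.10 in controls and 1.02, 1.38, 0.64, 1.66 and 1.45 after nPM. The lowest value, in nPM_F4, rested on 6 reads. Slc6a13, the GABA and taurine transporter GAT2 (ENSMUSG00000030108.14, chr6:121300227-121337733, plus strand, mm10), ranged from 1.95 to 3.99 in control females, from 1.35 to 4.50 in exposed females, from 1.83 to 3.34 in control males and from 2.17 to 2.75 in exposed males. Aldh1a2, the retinoic acid synthesizing enzyme (ENSMUSG00000013584.5, chr9:71215789-71296243, plus strand, mm10), ranged from 0.89 to 3.11, from 0.63 to 3.52, from 0.62 to 3.05 and from 1.01 to 2.31 in the same order of groups. For all 3 genes the nPM males lay inside the range of the control males.

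**Figure D2:**
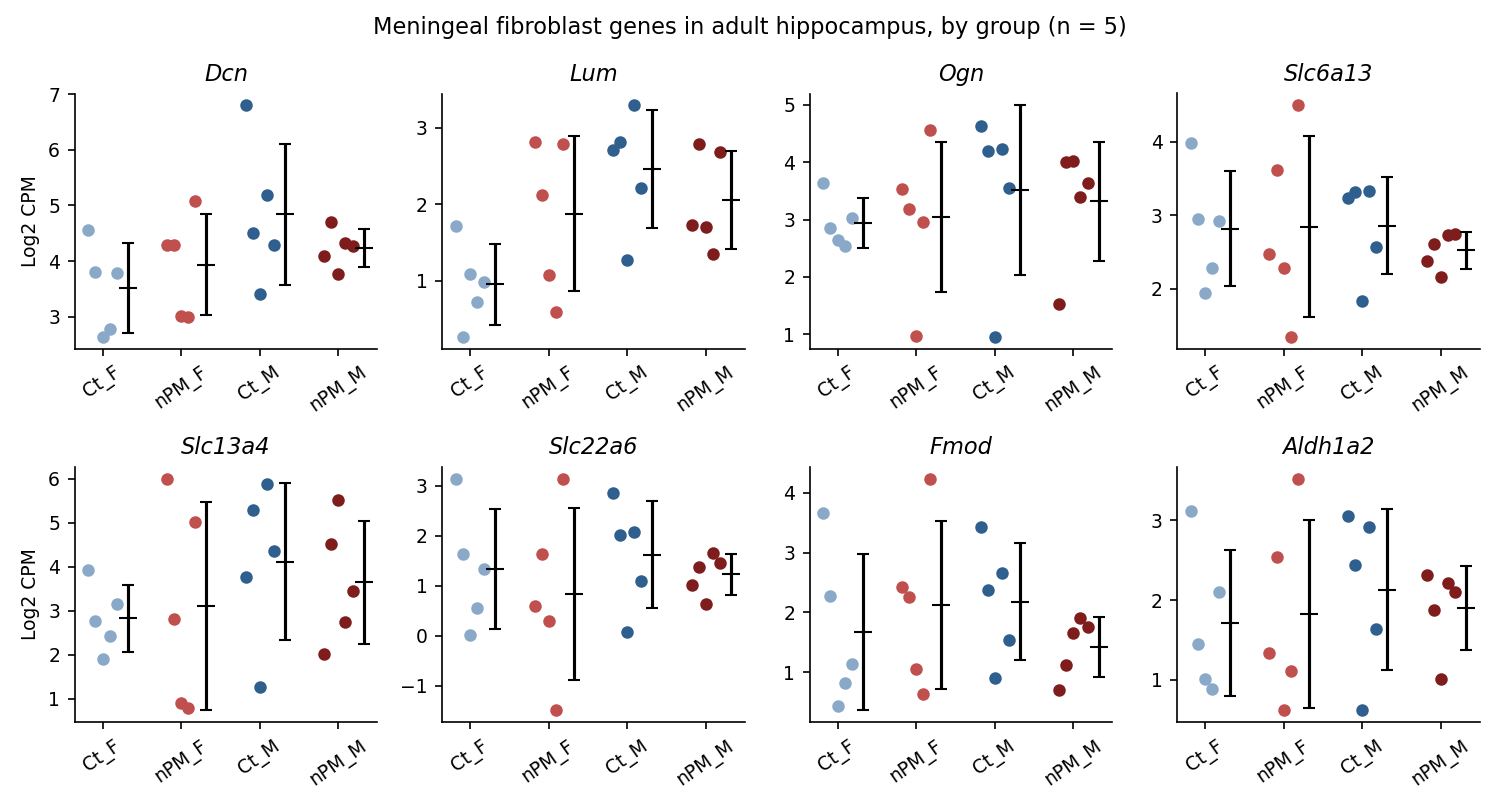
Log2 CPM (vertical axis) of each gene in the 4 groups (horizontal axis), with 1 point per sample in replicate order and the mean ± SD of the 5 samples as a black bar. In all 8 panels the exposed and control samples of each sex overlap, and the nPM males are the tightest group in 5 panels (Dcn, Slc6a13, Slc22a6, Fmod and Aldh1a2).

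The 8 genes rose and fell together across animals. All 28 pairs had a positive Pearson r over the 20 samples, from 0.48 to 0.93 with a median of 0.66, and a positive Spearman rho, from 0.48 to 0.94. All 28 passed a Benjamini-Hochberg adjusted p of 0.05 by both measures, with the largest adjusted p of r at 0.0333 (two-sided permutation test, 100000 resamples, 28 pairs). With the 4 group means taken out, r remained between 0.46 and 0.98. Without the 2 samples farthest from the median of the first gene, r was 0.37 to 0.93, and the lowest of these, Slc6a13 with Slc13a4, had been 0.52 over all samples. The labels name no batch, and genes of 1 sample are not independent.

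Within this shared variation a tight group and a looser one could be described, chosen after the values were seen. Slc6a13 and Slc22a6 were the closest pair (r = 0.93, rho = 0.94, adjusted p = 4.67e-05 for both by permutation, n = 20), and r was 0.98 with group means taken out. Together with Fmod and Aldh1a2 they formed 6 pairs with r from 0.78 to 0.93. Dcn joined them with r of 0.66 to 0.80. Slc13a4 correlated most with Ogn (r = 0.80) and Lum (r = 0.76), and least with Aldh1a2 (r = 0.48, rho = 0.48, adjusted p = 0.0333 by permutation, n = 20).

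**Figure D3:**
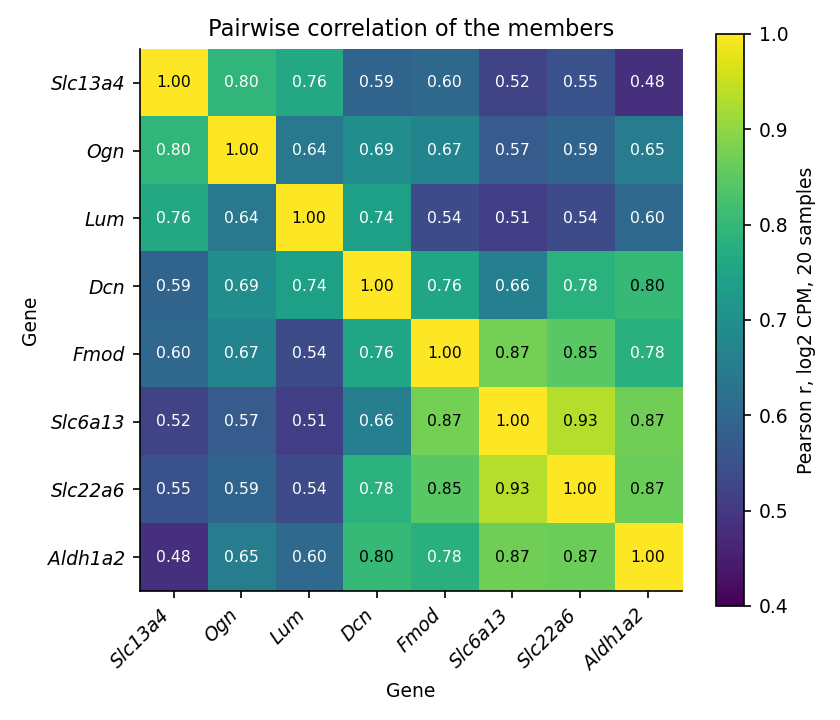
Pearson r of log2 CPM over the 20 samples for each pair of the 8 genes (both axes list the genes, the color and the printed number give r). The lower right block of Fmod, Slc6a13, Slc22a6 and Aldh1a2 holds r from 0.78 to 0.93, and the upper left block joins Slc13a4 with Ogn at 0.80 and with Lum at 0.76.

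Of the 8 genes, Slc13a4 had the highest correlation with markers of choroid plexus epithelium. Differences between the correlations of the members were not tested. The list of 12 choroid plexus genes, led by Ttr, the transthyretin carrier of thyroid hormone, with Kcnj13 and Clic6, summed to 36.3 CPM in Ct_M3 and to 8711 CPM in nPM_F1. Its range was 49.5 to 528 CPM in control females, 58.6 to 8711 in exposed females, 36.3 to 7696 in control males and 81.9 to 5909 in exposed males. Slc13a4 followed the mean log2 level of this list with r = 0.88 and rho = 0.81 (adjusted p = 8e-05 for r and 0.00064 for rho over the 8 genes by permutation, n = 20; the raw p of r, 1e-05, is the smallest 100000 resamples can give). Without the 2 samples farthest from the median r was 0.83. Ogn (r = 0.63, rho = 0.57, adjusted p = 0.00972 for r by permutation, n = 20) and Lum (r = 0.61, rho = 0.56, adjusted p = 0.0150 for r by permutation, n = 20) followed it less closely. Without the 2 farthest samples their r was 0.63 and 0.48.

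Fmod, Dcn, Slc6a13, Slc22a6 and Aldh1a2 had r from 0.15 to 0.27 with the choroid plexus list and adjusted p from 0.463 to 0.512 by permutation (n = 20). Single samples illustrate both readings. Ct_M4, with 7696 CPM of choroid plexus markers, was among the 5 highest for all 8 genes, and Ct_M3, with the least (36.3 CPM), was among the 5 lowest for 7. In contrast, nPM_F1 had the most choroid plexus RNA and the highest Slc13a4 of all samples, at 6.01 log2 CPM, while its Slc22a6 was 0.59. Ct_F1, at 49.5 CPM of choroid plexus markers, had a Slc22a6 of 3.14 and an Slc6a13 of 3.99. Ct_M1, at 94.98 CPM, had the highest Dcn of all. The list was also split at 1000 CPM after the values were seen. In the 7 samples above it, Slc13a4 kept r = 0.86, and in the 13 below it r was 0.47. For Ogn r was −0.29 above 1000 CPM and 0.41 below it, and for Lum 0.11 and −0.01. These r come from few samples and narrower ranges of the list, and neither they nor their differences were tested.

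**Figure D4:**
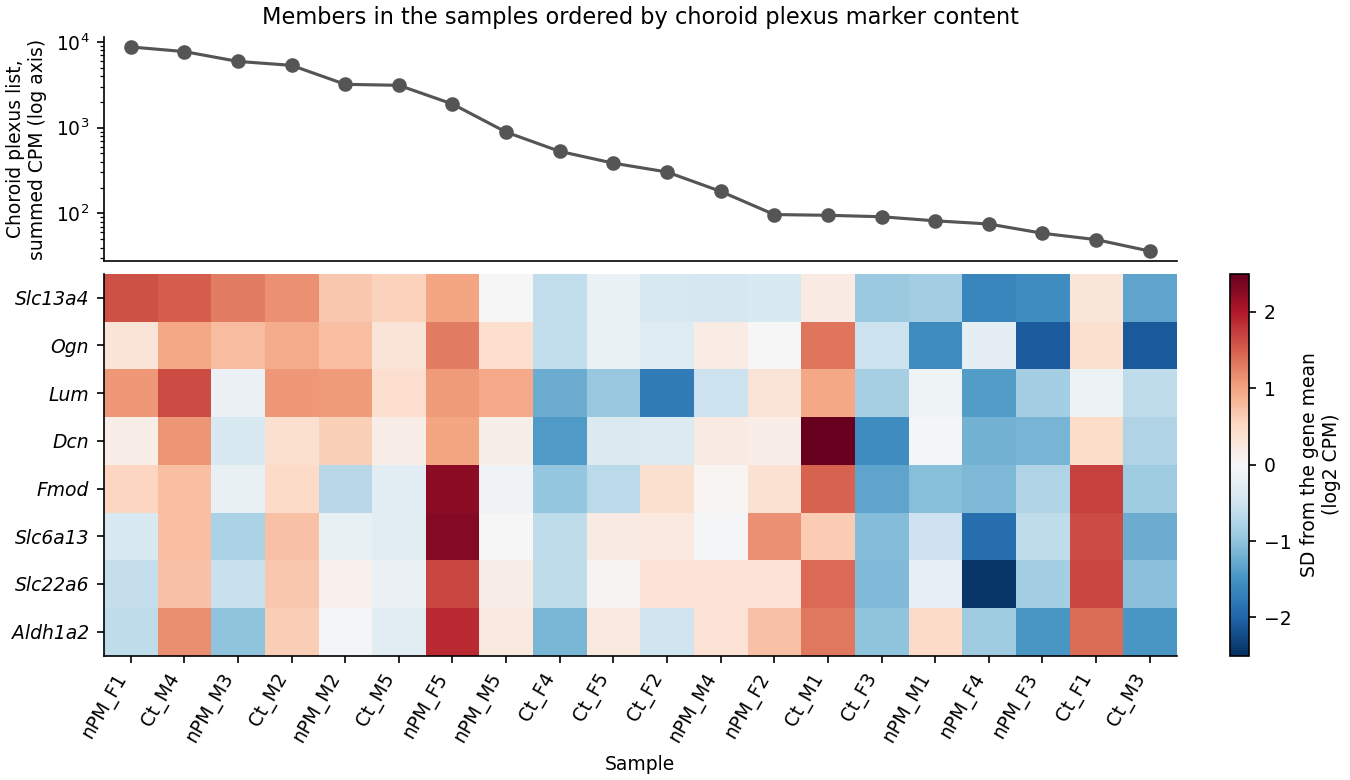
The 20 samples (horizontal axis, both panels) ordered by the summed CPM of the 12 choroid plexus markers (upper panel, log axis), and the log2 CPM of the 8 genes in SD units around the mean of each gene (lower panel, color). Slc13a4 is highest in the 7 samples above 1000 CPM and uneven below them, with Ct_F1 at 3.92 and Ct_M1 at 3.77 log2 CPM. Slc22a6 and Slc6a13 are high in Ct_F1, Ct_M1 and nPM_F5 wherever these fall. With the mean log2 level of the list, r is 0.88 for Slc13a4, 0.19 for Slc22a6 and 0.20 for Slc6a13.

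The label of the group was checked against other marker lists. A list of 18 fibroblast matrix genes, with Igfbp2, Igf2 and Mgp the most abundant, correlated with the mean standardized level of the 8 genes at r = 0.92 over the 20 samples, given as a description. A list of 15 further fibroblast transporters and regulators, with Zic1, Pdgfra and Ranbp3l the most abundant, gave r = 0.96. Border macrophages, which live in the meninges and around vessels, gave r = 0.86 over 7 genes (Mrc1, F13a1 and Cd163 on top). Smooth muscle cells and pericytes (Rgs5, Vtn, Pdgfrb) gave 0.58, choroid plexus epithelium 0.47, blood 0.29 and endothelium (Slco1a4, Ly6c1, Cldn5) 0.24. Hippocampal neurons (Rgs14, Wfs1, Fibcd1) gave −0.37. By their mean, the members therefore moved with fibroblast and meningeal macrophage genes and not closely with those of brain capillaries. Single members differed. With the smooth muscle and pericyte list r was 0.72 for Slc6a13, 0.64 for Slc22a6, 0.55 for Aldh1a2 and 0.32 to 0.48 for the others. With endothelium Slc6a13 had the highest r, at 0.48. All 15 and 18 genes of both fibroblast lists were above the filter. Slc13a4 followed choroid plexus markers at 0.88 and fibroblast matrix genes at 0.89, the highest r of the 8 members for both lists. For Ogn and Lum, r with the choroid plexus list was 0.63 and 0.61, as given above. Some genes of the fibroblast lists, such as Igf2 and Igfbp2, are also made in choroid plexus.

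Hemoglobin genes (Hbb-bs, Hba-a1 and Hbb-bt) marked 3 male samples with more blood: Ct_M1 at 43.0 CPM, nPM_M1 at 30.0 and nPM_M2 at 56.9, against 1.25 to 6.57 in the other samples. By the mean standardized level of the members they ranked 2, 15 and 7 of the 20 samples. The part of blood in the results was not tested beyond the fits without these samples.

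Among the 10 genes most like the group over the 20 samples, by Pearson r with its mean standardized level, were Colec12 (0.95), a scavenger receptor, Efemp1 (0.94), an elastic fiber protein, Itih2 (0.93), which stabilizes hyaluronan, Slc7a11 (0.92), the cystine and glutamate exchanger, Fgl2 (0.91), Crabp2 (0.91), a retinoic acid binding protein, Myoc (0.90), Cped1 (0.90) and Mrc2 (0.90), a collagen receptor. Efemp1 and Crabp2 were on the fibroblast lists. Gene by gene, the closest non-member was Fgl2 for Dcn (0.90), Emilin1 for Lum (0.88), Colec12 for Ogn (0.83), Itih2 for Slc6a13 (0.94), Col9a2 for Slc22a6 (0.93), Mrc1 for Fmod (0.91) and Myoc for Aldh1a2 (0.92). For Slc13a4 it was Bmp6 (0.96), a secreted growth factor of the TGF-beta family. These are the highest of 19797 values, and no p is given.

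Several members sit beside a relative on the chromosome. Dcn and Lum are 47.3 kb apart on chromosome 10 and correlated at r = 0.74 (rho = 0.78, adjusted p = 0.00036 by permutation over the 9 neighbour pairs, n = 20). Slc6a13 and Slc6a12, the betaine and GABA transporter BGT1, 5.34 kb apart, gave r = 0.86 (rho = 0.83, adjusted p = 9e-05 by permutation, n = 20). Slc22a6 and Slc22a8 (OAT3), 6.16 kb apart, gave r = 0.71 (rho = 0.75, adjusted p = 0.000612 by permutation, n = 20). The 28 pairs of members, nearly all on different chromosomes, had r from 0.48 to 0.93. The permutation p sets r against 0 and not against this shared variation, and the part of distance was not tested. Around Ogn, Omd (15.5 kb) gave r = 0.73 (rho = 0.75) and Ecm2 (75.3 kb) r = 0.75 (rho = 0.78), both with an adjusted p of 0.000495 by permutation (n = 20). Aspn, 40.5 kb away in the same cluster, gave r = 0.10 (rho = 0.11, adjusted p = 0.664 by permutation, n = 20). Fmod and Prelp, 116 kb apart, gave r = 0.40 (rho = 0.47, adjusted p = 0.107 by permutation, n = 20). Dcn and Lum with Epyc gave 0.44 and 0.31 and did not pass the adjusted threshold. For the 5 pairs that passed, r without the 2 samples farthest from the median was 0.64 to 0.82. Kera, next to Lum, and Optc, next to Fmod, were below the filter, with at most 2 and 18 reads in a sample. Aspn thus lies nearer to Ogn than Ecm2 does, with a lower r. Slc6a13 also overlaps the small RNA gene Gm24855, which had 0 counts.

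The main question of the design is whether gestational nPM altered these genes. With sex as a covariate, no member passed p of 0.005 in limma, the threshold of the study, and no member passed an unadjusted 0.05. Over all genes 0.141% passed the first (28 of 19797) and 2.1% the second, and 0 passed an adjusted p of 0.05. Slc22a6 was furthest from 0, with a log2 fold change of −0.38 (SE 0.44, adjusted p = 0.9998, limma). The median log2 fold change of the members was −0.12, beside −0.01 over all genes. Signs were negative for 7 of the 8, and Lum was at 0.08 (SE 0.33). The intervals were wide, since the median SE of the members was 0.41 against 0.11 for all genes. For Slc13a4 the 95% interval of the fold ran from 0.34 to 2.24, and for Slc6a13, the most precise, from 0.59 to 1.44. With 10 samples per exposure, differences of any size inside these intervals remain possible.

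Within males, no member passed 0.005 or 0.05, beside 0.207% (41 genes) and 4.28% of all genes. All 8 log2 fold changes were negative, with a median of −0.43 against −0.0013 for all genes. Since the 8 genes vary together, these are not 8 separate observations. Fmod was furthest from 0 among the members, at −0.75 (SE 0.43, adjusted p = 0.963, limma). Dcn was at −0.61 (SE 0.49), Slc13a4 at −0.59 (SE 0.84), Lum at −0.47 (SE 0.38), Slc22a6 at −0.40 (SE 0.43), Slc6a13 at −0.35 (SE 0.27), Ogn at −0.27 (SE 0.66) and Aldh1a2 at −0.24 (SE 0.42). Every 95% interval included 0. Ct_M3 was the lowest control male for all 8 genes and weighed on these values. Without it 4 members came under an unadjusted 0.05, namely Fmod (−1.03), Slc22a6 (−0.74), Lum (−0.74) and Slc6a13 (−0.58), each with an adjusted p of 0.931 (limma), and Slc13a4 moved to −1.24. Other samples weighed the opposite way. Without Ct_M1, Dcn was at −0.17 and Slc22a6 at −0.13. Without Ct_M4, Lum was at −0.22, Slc6a13 at −0.21 and Slc13a4 at −0.10. Without nPM_M1, Slc13a4 was at −0.15. Without the 3 samples rich in hemoglobin, Fmod was at −0.13, Slc22a6 at −0.10 and Dcn at −0.27. Dcn also depended on the test, at −1.06 with edgeR and −1.07 with DESeq2. Fmod came under an unadjusted 0.05 with both of these tests. It was at −0.94 (adjusted p = 0.969, edgeR) and −0.95 (adjusted p = 0.998, DESeq2).

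Within females, 7 of 8 log2 fold changes were positive, with a median of 0.32 against −0.01 for all genes, and no member passed 0.005, beside 0.0859% of all genes (17). Lum alone was under an unadjusted 0.05, beside 2% of all genes, with 0.98 (SE 0.45, adjusted p = 0.99998, limma), a fold of 1.98 with a 95% interval of 1.01 to 3.87. Fmod was at 0.56 (SE 0.71), Dcn at 0.50 (SE 0.45) and Slc13a4 at 0.48 (SE 0.92), and Slc22a6 was the negative one at −0.37 (SE 0.75). The Slc13a4 value was unstable: it was 1.44 with edgeR and with DESeq2, −0.31 without nPM_F1 and −0.035 without nPM_F5. Lum kept its sign in every fit that was run, but no longer passed the unadjusted 0.05 in 7 of the 10 fits that left out a sample (all but those without Ct_F1, nPM_F3 or nPM_F4), nor with age as a covariate, without the filter on low counts or in 1 fit of the 4 groups. nPM_F1 and nPM_F5, where Lum was highest among females, also held 8711 and 1884 CPM of choroid plexus markers. nPM_F2, which also exceeded every control female for Lum (2.13), held 96.9 CPM, and the control females held 49.5 to 528. With the choroid plexus level as a covariate Lum was at 0.85 (adjusted p = 0.9999, limma). Beyond that fit, the part of choroid plexus in these values was not tested.

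Each gene was also compared within each sex by an exact permutation test, and none of the 16 tests passed 0.05. All 16 comparisons had overlapping groups. The smallest of the 16 two-sided exact p was 0.127, for Lum in females, followed by 0.183 for Fmod in males, where 5 against 5 samples can reach 0.00794. None of the nPM males exceeded the control male median for Ogn, Slc6a13, Slc22a6, Fmod and Aldh1a2, and 1 of 5 did for Dcn and Lum. The exact tests and these counts were made for the members only, so no share over all genes can be set beside them.

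**Figure D5:**
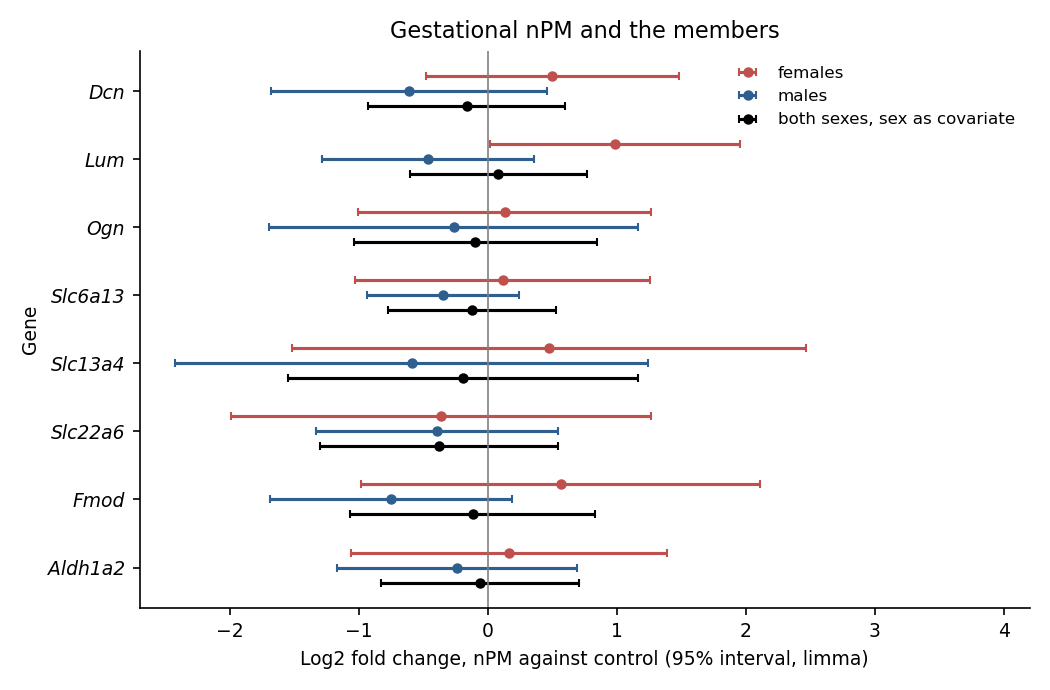
Log2 fold change of nPM against control (horizontal axis, 0 marks no difference) for each gene (vertical axis) in females, males and both sexes, with the 95% interval of limma as bars. Male estimates are all below 0 and 7 of 8 female ones above it, and only the interval of Lum in females, from 0.01 to 1.95, leaves out 0.

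The difference between the male and the female effect was tested by the interaction term. It was negative for all 8 genes, with a median of −0.77 against 0.01 for all genes, and none passed 0.005, beside 0.217% of all genes (43). Lum was under an unadjusted 0.05, beside 3.79% of all genes, at −1.45 (SE 0.64, adjusted p = 0.987, limma). Fmod was at −1.32 (SE 0.90), Dcn at −1.11 (SE 0.75) and Slc13a4 at −1.07 (SE 1.39). Slc22a6 was at −0.04 (SE 0.92). The 95% interval of Lum, −2.78 to −0.12, left out 0, and those of the other 7 genes included it. Lum kept its sign in every fit, but not its place under an unadjusted 0.05. Its limma p was 0.065 without Ct_F2, 0.058 without Ct_F4 and at most 0.078. Slc22a6 was negative in both sexes, and the other 7 genes had opposite signs in males and females. The choroid plexus list had the same signs, with a median of −0.37 in males, 0.96 in females and −1.31 for the interaction, and none of its 12 genes passed 0.005 either. Its part in the members' values was not tested outside the covariate fits.

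Between the sexes, Dcn, Lum and Slc13a4 had the largest estimates among the members, all toward males, and none of the 8 passed p of 0.005. A total of 31.1% of all genes (6147) passed p of 0.005 in the fit of both sexes, and 48.4% passed 0.05, which 2 members did. Dcn was higher in males by 0.82 (SE 0.37, adjusted p = 0.0869, limma), and Lum by 0.77 (SE 0.34, adjusted p = 0.0773, limma). Slc13a4 was at 0.88 with an SE of 0.68 (adjusted p = 0.314, limma). Whether the members' share differs from that of all genes was not tested. The SE of the members was 0.41 in the median against 0.11. The adjusted p of Lum came under 0.05 without nPM_F1 (0.0259), without nPM_F5 (0.0290), without Ct_M3 (0.0444), without nPM_M4 (0.0451) or with DESeq2 (0.0345), and that of Dcn without nPM_F5 (0.0375) or without Ct_M3 (0.0403). Choroid plexus markers were also higher in males, with a median log2 difference of 1.23 over 12 genes, none of which passed 0.005. With the choroid plexus level as a covariate Slc13a4 was at −0.04 and Lum at 0.48, and with age as a covariate Dcn (−1.39), Lum (−0.69) and Slc13a4 (−2.65) turned negative.

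In the 4 comparisons that involve nPM, 0.0859% to 0.217% of all genes passed p of 0.005. At such a share, short lists can hold none by that rate alone. The pathways around the members gave no gene at this threshold in any of these comparisons. This holds for the 18 fibroblast matrix genes, the 15 fibroblast transporters and regulators, 9 of 12 further leucine-rich proteoglycans that passed the filter (Prelp, Ecm2 and Bgn the most abundant), 8 of 10 relatives of the transporters (Slc6a11 and Slc6a6 among the most abundant), 14 of 17 genes of retinoic acid metabolism and signaling (Aldh1a1, Rxrb and Rxra on top), and the lists of choroid plexus, mural, endothelial, macrophage, blood and neuronal markers. The medians of the fibroblast matrix genes had the same signs as those of the members. In females 18 of 18 were above 0, with a median log2 fold change of 0.39. In males 0 of 18 were, with a median of −0.27. The medians over all genes were −0.01 in females and −0.0013 in males. Of the 15 fibroblast transporters and regulators, 9 were above 0 in females, with a median of 0.11. In males 2 of the 15 were, with a median of −0.31. Genes of a list can vary together, so these counts are not separate observations, and they were not tested. Retinoic acid genes had medians of 0.12 in females and −0.07 in males, and the further proteoglycans 0.26 and −0.19.

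Between the sexes 9 genes of these lists passed 0.005 in limma, a threshold that 31.1% of all genes passed in this comparison. They were 2 of 15 fibroblast transporters and regulators, 1 of 18 matrix genes and 1 of 8 transporter relatives. The others were 1 of 9 mural and 4 of 8 endothelial genes, and the remaining lists held none. Age and EdU go with sex in these samples. Slc47a1, a transporter of organic cations, was higher in males by 1.55 (SE 0.39, adjusted p = 0.00325), and Slc26a7, an anion exchanger, by 1.28 (SE 0.38, adjusted p = 0.0105). Cemip, a hyaluronan-degrading protein, was lower in males, at −0.36 (SE 0.09), as were the taurine transporter Slc6a6 (−0.26, SE 0.07) and Abcc9 of mural cells (−0.21, SE 0.07). Of the 8 endothelial genes, 4 were lower in males: Flt1 (−0.64, SE 0.08), Cdh5 (−0.54, SE 0.14), Pecam1 (−0.33, SE 0.08) and Slco1a4 (−0.28, SE 0.07).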

How the data were processed

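Hippocampal RNA of 20 adult mice, 5 per group, was depleted of ribosomal RNA and sequenced by the authors. Per the labels and methods, reads were aligned to mm10 with HISAT2 and counted with featureCounts 1.5.0-p3 on Gencode M11; strand setting and treatment of multi-mapping reads are not given in the sources used here. The authors deposited whole-number counts for 48709 genes. They also deposited gene lengths (another value, in bases) and the mean RPKM of each gene, which was recomputed from the counts for a check and used in no test.

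Counts were scaled by TMM (edgeR 4.0.16; factors 0.958 to 1.06) and filtered with filterByExpr (minimum count 10, total 15). limma-voom (limma 3.58.1, R 4.3.3; offset 0.5) with empirical Bayes moderation was fitted to all 19797 genes: nPM with sex as a covariate, nPM within each sex, the interaction, and sex with nPM as a covariate. Tests are two-sided, with p of 0.005 as in the methods and Benjamini-Hochberg adjustment over all genes. The fits were tested on simulated data. Correlations used log2 CPM with 100000 permutations. Totals were 19092067 to 38663408 counts per sample.

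Named besides the members were the 10 genes most correlated with them, the closest gene to each, the 3 most abundant genes of each list and those past 0.005, and overlapping or neighbouring relatives. Of the genes this rule names, 2 are not reported here. The members, lists and tests were chosen with earlier results of these data known. Alternatives were edgeR's quasi-likelihood test, DESeq2 1.42.0, RLE normalization, 2 other filters, sample weights, age or choroid plexus level as a covariate, a replicate block and each sample left out. Protein sequences were not used here.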

Additional observations from a re-analysis of the deposited data

Results flagged for a closer look

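Ogn in nPM_M1 was far below the other 4 nPM males, at 1.52 log2 CPM against 3.39 for the nearest. The gap was 0.748 of the range of the group, above Dixon's critical value of 0.71 for 5 samples. This was the only value flagged among 32 groups of 5 (8 genes in 4 groups), where chance flags about 1 in 20. Ogn was similarly low in nPM_F3 (0.97) and Ct_M3 (0.95), which lie in other groups. nPM_M1 also held 30.0 CPM of hemoglobin genes, and the part of blood in the Ogn value was not tested.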

How the results depend on the processing

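No member reached p of 0.005 in any comparison under any alternative that was run, and the smallest p was 0.00727 (Lum in females, DESeq2). No log2 fold change of a member was called in the main fits. Under the alternatives an adjusted p under 0.05 was reached only for the sex difference, by Lum and Dcn in the fits named above. Signs turned in 37 of 248 fits of a gene with both sexes, 17 of 168 in females, 2 of 168 in males, 15 of 240 for the interaction and 15 of 248 for the sex difference. With both sexes, Ogn and Slc13a4 turned to 0.028 and 0.41 with edgeR and to 0.027 and 0.43 with DESeq2. With sample weights Dcn (0.078), Ogn (0.070), Slc6a13 (0.045), Fmod (0.023) and Aldh1a2 (0.093) turned positive, as did Dcn (0.13), Ogn (0.25), Fmod (0.27) and Aldh1a2 (0.014) without the 3 hemoglobin-rich samples, and Slc13a4 (0.017) with choroid plexus level as a covariate. Without those 3 samples Ogn was 0.36 in males and 0.24 for the interaction, and Slc22a6 was 0.25 for the interaction. In females Slc22a6 was 0.050 with sample weights, and with age Slc6a13 was −0.12 and Aldh1a2 −0.080. With age the interaction of Slc22a6 was 0.26. For the sex difference, age as a covariate moved the median of the members to −1.48, with Dcn at −1.39, Lum at −0.69, Ogn at −1.29, Slc13a4 at −2.65, Slc22a6 at −2.03 and Aldh1a2 at −1.42; age and sex do not overlap in the labels. Slc22a6 turned to −0.091 (edgeR), −0.081 (DESeq2) and −0.11 (sample weights), Aldh1a2 to −0.050 (sample weights) and Slc13a4 to −0.043 (choroid plexus level). Other causes of these turns were not tested.

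Leaving out each sample in turn gave, with both sexes, −0.35 to 0.13 for Dcn, −0.071 to 0.30 for Lum, −0.44 to 0.18 for Ogn, −0.35 to 0.020 for Slc6a13, −0.61 to 0.15 for Slc13a4, −0.45 to 0.078 for Fmod and −0.27 to 0.075 for Aldh1a2. In females it gave −0.31 to 0.71 for Ogn, −0.35 to 0.43 for Slc6a13, −0.31 to 1.14 for Slc13a4, −0.99 to 0.11 for Slc22a6, −0.022 to 1.08 for Fmod and −0.32 to 0.54 for Aldh1a2, and in males −0.85 to 0.21 for Ogn. For the interaction it gave −0.97 to 0.084 for Ogn, −0.52 to 0.59 for Slc22a6 and −0.78 to 0.078 for Aldh1a2, and for the sex difference −0.28 to 0.078 for Slc6a13 and −0.31 to 0.22 for Fmod. The number of members under 0.05 in the exact permutation tests was 0 to 1 in females and 0 to 1 in males, with 1 reached without nPM_F4 and without Ct_M3.

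With the choroid plexus list, r turned negative below 1000 CPM for Dcn (−0.027), Lum (−0.012) and Fmod (−0.042), and above it for Dcn (−0.29), Ogn (−0.29), Slc6a13 (−0.44), Slc22a6 (−0.49), Fmod (−0.16) and Aldh1a2 (−0.38). The split at 1000 CPM, the choroid plexus covariate and the fits without hemoglobin-rich samples were added after seeing the data. Same-numbered samples did not deviate together (r −0.36 to 0.16), and with a replicate block the median of the members was −0.20 for both sexes, −0.50 in males and 0.36 in females, with 0 members past 0.005. With it Slc13a4 in females was 1.13 and under an unadjusted 0.05 (adjusted p = 0.9999, limma), as was the interaction of Dcn, at −1.20 (adjusted p = 0.973, limma); no other value of a member changed sides of an unadjusted 0.05. Slc22a6 had the fewest reads, with a median of 76.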
